A study of Homo sapiens with 20 samples.

Results

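RNA-seq read counts were compared between A549 cells labelled siKLF10+TGFβ, with 2 libraries (A and B), and A549 cells labelled siKLF10, also with 2 libraries (A and B). These 4 libraries were taken by their labels from the 20 of the series, and the comparison was described across all 23368 genes in the count files. A549 is an established human lung adenocarcinoma line, and siKLF10 is a small interfering RNA directed against KLF10. In the group given TGFβ the cytokine was present at 5 ng/ml for 72 h, and the libraries labelled siKLF10 alone received none. All 4 bear the KLF10 siRNA label, and the comparison is that of TGFβ within it. A further 4 A549 libraries with a control siRNA, siCont with TGFβ (2) and siCont (2), show the response under the other label, and 6 Panc1 libraries, siKLF10 with TGFβ (3) and siKLF10 (3), show it in a pancreatic ductal carcinoma line. For both lines the labels give SV40 large T antigen under immortalization type. The labels do not say if the lettered libraries of a group were grown apart, and the p-values below rest on the variation among the libraries as deposited, which could be technical only.

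TGFβ binds a receptor pair, TGFBR2 and TGFBR1, which phosphorylates SMAD2 and SMAD3. These join SMAD4 and enter the nucleus, where they act with partners such as the AP-1 factors. In epithelial cells the pathway can drive an epithelial-to-mesenchymal transition (EMT), in which cadherin and keratin programs give way to matrix, integrin and cytoskeletal genes, and it can also slow the cell cycle. KLF10, known as TGFβ-inducible early gene, is a Krüppel-like zinc-finger transcription factor that responds to the cytokine, and the series asked whether it restrains TGFβ-driven EMT. In bulk RNA, fewer cells of a type and less RNA per cell cannot be told apart.

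The targeted gene did not follow its label at baseline. KLF10 measured 151 and 142 CPM with the siKLF10+TGFβ label, against 102 and 109 CPM with the siKLF10 label. The control libraries lay at 179 and 179 CPM with siCont+TGFβ, against 110.2 and 107 CPM with siCont. The groups labelled siKLF10 and siCont without TGFβ overlapped, so that no knockdown was visible in the untreated cells. With TGFβ the libraries labelled siKLF10 lay below the siCont ones and did not overlap them, a difference that was not tested. The TGFβ response of KLF10 with the siKLF10 label minus that with siCont did not pass the test (log2 difference -0.24, edgeR's adjusted p = 0.23). The 4 libraries are therefore named below by their labels. With TGFβ, KLF10 rose in the libraries with the siKLF10 label (log2 fold change 0.48 ± 0.08, adjusted p = 3.0e-05, n = 2 against 2), and these groups did not overlap. Levels are CPM, counts scaled to library size with edgeR's TMM factors. Log2 fold changes are siKLF10+TGFβ over siKLF10, each ± its standard error, and a gene was called when edgeR's adjusted p was under 0.05. That error was derived from the test, as the absolute log2 fold change over the square root of edgeR's F statistic. For genes with few reads in a group it does not cover counting error and is too narrow. Only called genes are said to have risen or fallen, and for each gene so described whose 4 values are given the groups did not overlap.

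The response reached over much of the measured transcriptome. Of 14124 genes tested, 7523 were called, which is 53.3%. They split evenly, with 3742 higher (26.5%) and 3781 lower (26.8%) in the libraries labelled siKLF10+TGFβ. At least a 2-fold change was called for 2508 genes (17.8%), 1405 higher and 1103 lower, and at least a 4-fold change for 971, 623 higher and 348 lower. The 2 groups did not overlap for 10336 genes (73.2%). With the small spread between libraries (biological coefficient of variation 0.067), 333 called genes changed 1.2-fold or less, so a call alone says little about size. The median log2 fold change over all genes was -0.01. Lists of genes are read below against 26.5% higher and 26.8% lower.

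Gene counts summed to 10276378 and 19070551 in the libraries labelled siKLF10+TGFβ, and to 11329759 and 6935026 in those labelled siKLF10. The siKLF10+TGFβ pair stood further apart than the other A549 pairs, with 11.4 as the chi-square over its degrees of freedom, against 2.22 to 2.97. Between its libraries, B minus A ran from a median log2 of -0.04 for genes with transcripts under 1000 bases to 0.06 for those of 4000 bases or more, and the TGFβ effect itself ran from -0.09 to 0.16 across the same length classes. The part of transcript length in the results was not tested. On the first principal component of the 8 A549 libraries, with 77.9% of the variance, the libraries with TGFβ separated from those without, and on the second, with 10.7%, the libraries labelled siKLF10 separated from the siCont ones.

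Known target genes of the pathway rose almost without exception. Of 30 tested members of a list of known TGFβ target genes, 29 rose and 1 fell (median log2 fold change 2.46). IL11, a cytokine of the IL-6 family that acts in fibrosis, measured 1177 and 1232 CPM with the siKLF10+TGFβ label, against 27.5 and 26.8 CPM with the siKLF10 label. That is a 44.3-fold rise (log2 fold change 5.47 ± 0.10, adjusted p = 1.8e-20). ITGB6, the integrin chain that helps to release active TGFβ from its latent form, measured 37.2 and 34.2 CPM in the libraries labelled siKLF10+TGFβ and 0.868 and 1.81 CPM in those labelled siKLF10 (log2 fold change 4.83 ± 0.25, adjusted p = 7.0e-12). CTGF, a matricellular protein of fibrotic tissue, measured 946 and 739.9 CPM with the siKLF10+TGFβ label, against 42.6 and 46.2 CPM with the siKLF10 label (log2 fold change 4.25 ± 0.11, adjusted p = 1.0e-16). In each of these the TGFβ-treated pair lay far above the untreated pair. IGFBP3, named here after its values were seen, was the member that fell (log2 fold change -0.75 ± 0.08, adjusted p = 6.9e-08), at 710.5 and 650.4 CPM in the libraries labelled siKLF10+TGFβ and 1064 and 1219 CPM in those labelled siKLF10.

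The IL11 promoter is shown because the gene had the largest rise of the list among those with more than 3 counts in each group, and because its proximal promoter holds an AP-1 site, TGACTCA read on either strand. The sequence is RefSeq's, GRCh38.p14, chr19:55370414-55370713 on the minus strand, 250 bases before to 50 after the start, 5′ to 3′. Capitals mark the AP-1 match, whose first base lies 96 bases before the start.
IL11: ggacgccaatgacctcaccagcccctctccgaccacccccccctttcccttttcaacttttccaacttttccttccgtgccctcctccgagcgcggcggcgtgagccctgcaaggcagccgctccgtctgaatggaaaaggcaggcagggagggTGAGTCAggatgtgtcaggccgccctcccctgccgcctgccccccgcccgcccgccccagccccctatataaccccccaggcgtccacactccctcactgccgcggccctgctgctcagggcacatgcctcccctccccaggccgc
Over all 35116 promoters of that table, 4.95% held TGACTCA, 20.6% held the E2-box CAGGTG bound by SNAI and ZEB repressors, and 0.202% held the SMAD palindrome GTCTAGAC. Only 77.2% of the tested genes had a promoter in the table (10903 of 14124), so shares in changed genes were not compared.

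Ligands, receptors and carriers of latent TGFβ moved in different directions. Of 13 tested, 8 rose and 3 fell. TGFBR1, the signalling type I receptor, measured 834 and 836 CPM with the siKLF10+TGFβ label, against 92.6 and 94.4 CPM with the siKLF10 label (log2 fold change 3.16 ± 0.08, adjusted p = 2.0e-18). TGFBR3, the betaglycan co-receptor, went the other way at 5.36 and 4.60 CPM in the libraries labelled siKLF10+TGFβ and 43.2 and 44.6 CPM in those labelled siKLF10 (log2 fold change -3.16 ± 0.14, adjusted p = 2.0e-14). The latent TGFβ binding proteins LTBP3, LTBP2 and LTBP4, which was named after its values were seen, rose by log2 fold changes of 2.47, 2.31 and 2.02. Without siKLF10 library A, 5 members of this list fell. Among SMADs and feedback inhibitors 9 of 17 rose and 5 fell, 3 without siKLF10 library B. SMAD7, the inhibitory SMAD, measured 93.9 and 97.9 CPM with the siKLF10+TGFβ label, against 31.0 and 30.7 CPM with the siKLF10 label (log2 fold change 1.64 ± 0.09, adjusted p = 1.8e-12). PMEPA1, which dampens the receptor-SMAD step, measured 1924 and 1886 CPM in the libraries labelled siKLF10+TGFβ and 183 and 172 CPM in those labelled siKLF10 (log2 fold change 3.42 ± 0.08, adjusted p = 6.8e-19), and SKIL, a SMAD co-repressor, rose by a log2 fold change of 1.63 ± 0.16. So 3 negative regulators of the pathway were higher with TGFβ on this background. SMAD3, named after its values were seen, fell (log2 fold change -1.08 ± 0.07, adjusted p = 2.4e-11).

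**Figure D1:**
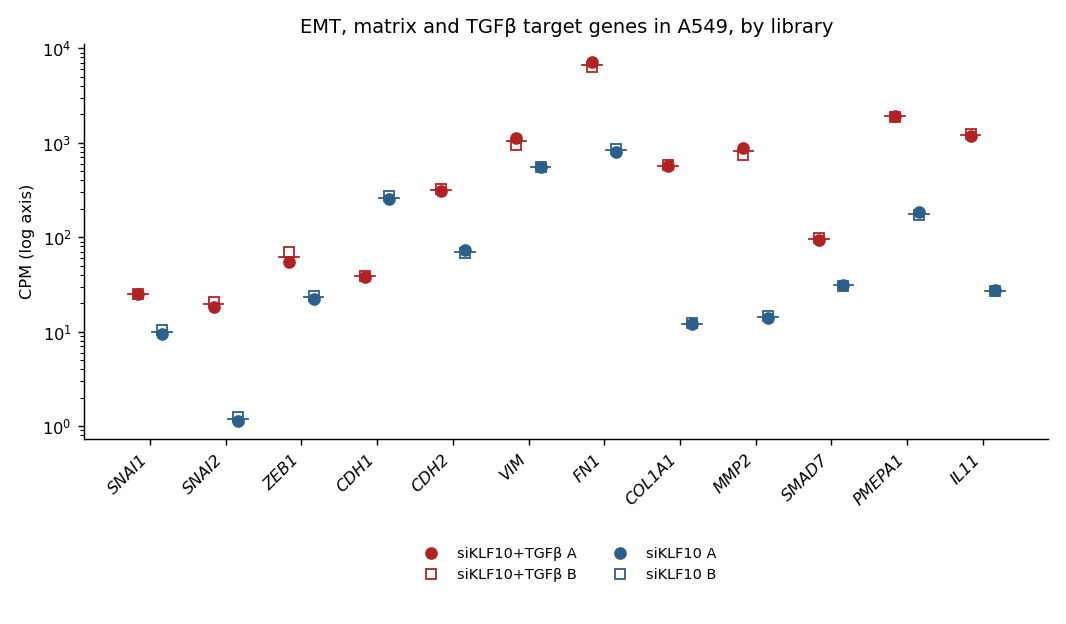
CPM on a log axis for 12 TGFβ target, EMT and matrix genes in each of the 4 libraries (red, siKLF10+TGFβ A and B; blue, siKLF10 A and B; short lines, group means). CDH1 is lower with TGFβ, the other 11 genes are higher, and for each gene the 2 groups do not overlap. Over all tested genes the groups do not overlap for 73.2%. COL1A1, MMP2, PMEPA1 and IL11 were placed by the gene lists.

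Genes of BMP and activin, the relatives of TGFβ, mostly rose, with 14 of 22 higher and 4 lower (median log2 fold change 0.99). INHBA, which encodes the activin A chain, measured 113 and 159 CPM with the siKLF10+TGFβ label, against 1.48 and 1.81 CPM with the siKLF10 label (log2 fold change 6.40 ± 0.30, adjusted p = 1.3e-07). INHBB, the activin B chain, moved in the opposite direction, at 9.01 and 8.93 CPM in the libraries labelled siKLF10+TGFβ and 170.0 and 156 CPM in those labelled siKLF10 (log2 fold change -4.18 ± 0.10, adjusted p = 1.4e-18). BMP2, a bone morphogenetic ligand, measured 65.2 and 85.7 CPM with the siKLF10+TGFβ label, against 2.17 and 2.23 CPM with the siKLF10 label (log2 fold change 5.11 ± 0.18, adjusted p = 1.0e-15). The chains of activin A and activin B therefore lay on opposite sides. GREM1, a secreted BMP antagonist, measured 6.27 and 5.47 CPM in the libraries labelled siKLF10+TGFβ and 0.607 and 0.279 CPM in those labelled siKLF10 (log2 fold change 3.56 ± 0.38, adjusted p = 5.0e-08). GDF15, a stress-induced family member, fell (log2 fold change -3.18 ± 0.14, adjusted p = 1.5e-14). The ID genes, which block basic helix-loop-helix factors and respond to BMP signals, gave 1 rise and 3 falls, with ID2 at a log2 fold change of -1.60 ± 0.09 and ID3, the rise, at 0.36 ± 0.08.

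EMT transcription factors did not move as a block. Of 18 tested, 9 rose and 6 fell, with a median log2 fold change of -0.01, and the falls numbered 3 without siKLF10 library A. SNAI2, a zinc-finger repressor of CDH1, measured 18.2 and 20.8 CPM with the siKLF10+TGFβ label, against 1.13 and 1.26 CPM with the siKLF10 label (log2 fold change 4.05 ± 0.23, adjusted p = 1.5e-12). SNAI1, its relative, measured 24.8 and 25.1 CPM in the libraries labelled siKLF10+TGFβ and 9.46 and 10.5 CPM in those labelled siKLF10 (log2 fold change 1.34 ± 0.15, adjusted p = 1.3e-07). The step of SNAI2 was thus the larger, although both reached a similar level. ZEB1, another CDH1 repressor, measured 54.4 and 69.7 CPM with the siKLF10+TGFβ label, against 22.3 and 24.1 CPM with the siKLF10 label (log2 fold change 1.44 ± 0.12, adjusted p = 1.1e-09). SOX4 and HMGA2, a pair of regulators known to act upstream of EMT, rose by log2 fold changes of 2.06 ± 0.08 and 1.59 ± 0.09. ELF3, an epithelial ETS factor, measured 39.1 and 34.4 CPM in the libraries labelled siKLF10+TGFβ and 295 and 303 CPM in those labelled siKLF10 (log2 fold change -3.03 ± 0.09, adjusted p = 2.3e-17). TWIST1, named after its values were seen, also fell (log2 fold change -1.02 ± 0.23, adjusted p = 7.3e-04), although it is a classical EMT inducer.

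On the epithelial side, 18 of 37 tested junction genes fell and 7 rose (median -0.41). CDH1, the adherens-junction cadherin E-cadherin, measured 38.0 and 38.8 CPM with the siKLF10+TGFβ label, against 251 and 269.7 CPM with the siKLF10 label (log2 fold change -2.76 ± 0.09, adjusted p = 1.2e-16). PPL, a desmosome-linked plakin, and TJP3, a tight-junction scaffold, fell (log2 fold changes -3.17 ± 0.11 and -3.53 ± 0.19). MAL2, an apical transport protein, measured 24.7 and 20.1 CPM in the libraries labelled siKLF10+TGFβ and 91.2 and 104 CPM in those labelled siKLF10 (log2 fold change -2.14 ± 0.11, adjusted p = 2.1e-13). CLDN4, a tight-junction claudin, stood against this with 60.8 and 56.3 CPM with the siKLF10+TGFβ label, against 3.04 and 3.49 CPM with the siKLF10 label (log2 fold change 4.18 ± 0.15, adjusted p = 5.7e-16), so the list did not fall as a whole. Keratin genes were as mixed, with 6 of 15 higher and 5 lower. KRT6A, a keratin of activated keratinocytes, measured 22.3 and 21.8 CPM in the libraries labelled siKLF10+TGFβ and 0.521 and 0.558 CPM in those labelled siKLF10 (log2 fold change 5.33 ± 0.25, adjusted p = 5.8e-14), although its near-identical copy KRT6B makes the share of reads uncertain. KRT8 and KRT18, the simple-epithelial pair, named after their values were seen, fell (log2 fold changes -1.25 ± 0.09 and -1.30 ± 0.13). KRT18 measured 842 and 629 CPM with the siKLF10+TGFβ label, against 1914 and 1698 CPM with the siKLF10 label.

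Mesenchymal genes went up as a majority, with 20 of 26 higher and 2 lower (median log2 fold change 1.55). CDH2, N-cadherin, measured 307 and 325 CPM with the siKLF10+TGFβ label, against 72.5 and 67.6 CPM with the siKLF10 label (log2 fold change 2.17 ± 0.09, adjusted p = 2.9e-15). Of the usual EMT pair CDH1 and CDH2, CDH1 was thus lower and CDH2 higher. VIM, the intermediate filament vimentin, measured 1129.7 and 948 CPM in the libraries labelled siKLF10+TGFβ and 548 and 556 CPM in those labelled siKLF10 (log2 fold change 0.91 ± 0.08, adjusted p = 4.0e-09). MMP2, a gelatinase, measured 874 and 749 CPM with the siKLF10+TGFβ label, against 13.8 and 14.8 CPM with the siKLF10 label, a 57.0-fold difference (log2 fold change 5.83 ± 0.11, adjusted p = 1.8e-20). CDH11, a cadherin of mesenchymal cells, measured 83.7 and 92.9 CPM in the libraries labelled siKLF10+TGFβ and 2.60 and 1.39 CPM in those labelled siKLF10 (log2 fold change 5.37 ± 0.17, adjusted p = 7.7e-17). ACTA2, the smooth-muscle actin often used to mark myofibroblasts and named after its values were seen, did not pass the test at 13.5 and 13.05 CPM with the siKLF10+TGFβ label, against 13.4 and 14.4 CPM with the siKLF10 label (log2 fold change -0.06 ± 0.14, adjusted p = 0.73). These genes are shared with fibroblasts, whose markers were summed. Of 9 listed, 6 could be tested and 5 rose, with summed levels of 28.3 and 27.2 CPM in the libraries labelled siKLF10+TGFβ, against 6.68 and 9.07 CPM in those labelled siKLF10. Among the 5, THY1 was not called by DESeq2 (adjusted p = 0.28). DCN, a defining fibroblast proteoglycan, was not one of the 5. It had 8 and 44 reads with TGFβ, against 2 and 1 without, not scaled to library size. Whether any other cell type had a part in these results was not tested.

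Matrix genes gave some of the steepest rises of the comparison. Collagen chains rose for 16 of 23 and fell for 4 (median 1.12). COL1A1, a chain of fibrillar type I collagen, measured 561 and 582 CPM with the siKLF10+TGFβ label, against 11.98 and 12.3 CPM with the siKLF10 label (log2 fold change 5.56 ± 0.10, adjusted p = 1.8e-20). COL22A1, a chain of a junctional collagen, measured 246 and 277 CPM in the libraries labelled siKLF10+TGFβ and 1.82 and 2.51 CPM in those labelled siKLF10 (log2 fold change 6.96 ± 0.14, adjusted p = 7.5e-20). For both, the treated pair lay far above the untreated pair. COL4A1, of the basement membrane, was plentiful in all 4 libraries and measured 1527 and 1509 CPM with the siKLF10+TGFβ label, against 119 and 128 CPM with the siKLF10 label (log2 fold change 3.62 ± 0.08, adjusted p = 2.5e-19). COL12A1, named after its values were seen, fell (log2 fold change -1.53 ± 0.08, adjusted p = 4.9e-13), so collagen transcripts did not all follow 1 direction. Among enzymes that crosslink or modify collagen, 11 of 18 rose and 1 fell, led by ADAMTS2, a procollagen protease, at a log2 fold change of 5.91 ± 0.27 and LOX, a lysyl oxidase, at 3.01 ± 0.14.

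Other matrix components followed, with 21 of 29 glycoprotein and proteoglycan genes higher and 4 lower (median 1.64). FN1, fibronectin, measured 7163 and 6261 CPM in the libraries labelled siKLF10+TGFβ and 801 and 867 CPM in those labelled siKLF10 (log2 fold change 3.01 ± 0.09, adjusted p = 3.6e-17). SPOCK1, a testican proteoglycan, measured 458 and 485 CPM with the siKLF10+TGFβ label, against 6.94 and 6.69 CPM with the siKLF10 label (log2 fold change 6.10 ± 0.11, adjusted p = 1.8e-20). SPARC, a collagen-binding protein, rose by a log2 fold change of 3.85 ± 0.21 and NID1, a basement-membrane linker, by 3.08 ± 0.23. Receptors and anchors for this matrix rose too, with 16 of 21 integrin and laminin genes higher and 4 lower, 2 without siKLF10 library B. ITGA11, a collagen receptor chain, measured 177 and 156 CPM in the libraries labelled siKLF10+TGFβ and 3.04 and 2.09 CPM in those labelled siKLF10 (log2 fold change 5.95 ± 0.15, adjusted p = 2.2e-18).

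Enzymes that degrade matrix, together with their TIMP inhibitors, gave 17 rises and 5 falls among 27 tested. MMP1, interstitial collagenase, was almost silent without TGFβ, at 56.8 and 49.2 CPM in the libraries labelled siKLF10+TGFβ and 0.434 and 0.279 CPM in those labelled siKLF10 (log2 fold change 7.10 ± 0.23, adjusted p = 1.2e-16). MMP9, another gelatinase, measured 14.0 and 11.6 CPM with the siKLF10+TGFβ label, against 0.260 and 0.139 CPM with the siKLF10 label (log2 fold change 5.81 ± 0.37, adjusted p = 1.1e-11). TIMP3, an inhibitor bound to matrix, had 678 reads over the pair labelled siKLF10+TGFβ, against 3 over the pair labelled siKLF10, a ratio in CPM of 141 (95% counting interval 47.9 to 684). Counting intervals cover counting error only. In the plasminogen system 6 of 7 genes rose and 1 fell, a fall lost without siKLF10 library A or without siKLF10+TGFβ library B. Inhibitors and activators of the system both rose. SERPINE2, a protease inhibitor, measured 1041 and 955 CPM in the libraries labelled siKLF10+TGFβ and 19.5 and 18.3 CPM in those labelled siKLF10 (log2 fold change 5.71 ± 0.10, adjusted p = 1.8e-20). PLAUR, the urokinase receptor, measured 225 and 192 CPM with the siKLF10+TGFβ label, against 47.0 and 55.0 CPM with the siKLF10 label (log2 fold change 2.04 ± 0.10, adjusted p = 9.3e-14). Hyaluronan genes were divided, 5 higher and 3 lower of 10, with the synthase HAS2 at a log2 fold change of 2.53 ± 0.25 and the hyaluronidase HYAL1 at -1.67 ± 0.20.

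The actin and contractile list had 21 of 29 genes higher and 3 lower (median 0.57). TPM1, tropomyosin, measured 2739 and 2765 CPM with the siKLF10+TGFβ label, against 711 and 693 CPM with the siKLF10 label (log2 fold change 1.97 ± 0.07, adjusted p = 1.8e-15). PDLIM7, an actin-linked LIM protein, measured 279 and 293 CPM in the libraries labelled siKLF10+TGFβ and 56.2 and 59.8 CPM in those labelled siKLF10 (log2 fold change 2.31 ± 0.08, adjusted p = 8.0e-16). MYLK, the myosin light chain kinase, fell (log2 fold change -1.83 ± 0.10, adjusted p = 1.3e-12). Of 23 YAP and TEAD targets, genes that respond to cell tension and density, 12 rose and 8 fell, with the coagulation initiator F3 at a log2 fold change of 3.77 ± 0.16 and the muscle ankyrin-repeat protein ANKRD1 at -2.09 ± 0.21. Tubulin genes gave 4 rises and 5 falls of 15, 3 falls without siKLF10 library A.

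Among AP-1 and immediate early genes, which encode partners of SMADs on DNA, 13 of 20 rose and 5 fell (median 0.84). FOSB measured 22.4 and 24.3 CPM with the siKLF10+TGFβ label, against 0.434 and 0.558 CPM with the siKLF10 label (log2 fold change 5.57 ± 0.26, adjusted p = 7.0e-14). JUN measured 247 and 298 CPM in the libraries labelled siKLF10+TGFβ and 41.7 and 36.3 CPM in those labelled siKLF10 (log2 fold change 2.80 ± 0.10, adjusted p = 7.5e-16), and JUNB rose by a log2 fold change of 2.45 ± 0.08. FOS, named after its values were seen, fell at the same time (log2 fold change -2.45 ± 0.18, adjusted p = 1.6e-10), with 4.05 and 2.65 CPM with the siKLF10+TGFβ label, against 17.1 and 17.7 CPM with the siKLF10 label. FOS therefore differed in direction from its relative FOSB, and from JUN and JUNB, whose proteins pair with FOS proteins in AP-1. Within the KLF and SP family itself 10 of 20 genes were called, 5 in each direction, 3 in each direction without siKLF10 library A and 3 lower without siKLF10+TGFβ library B. Over all tested genes 53.3% were called, so the family lay close to that share. KLF7 rose by a log2 fold change of 1.90 ± 0.11, and KLF9 fell (log2 fold change -1.22 ± 0.15, adjusted p = 6.9e-07).

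**Figure D2:**
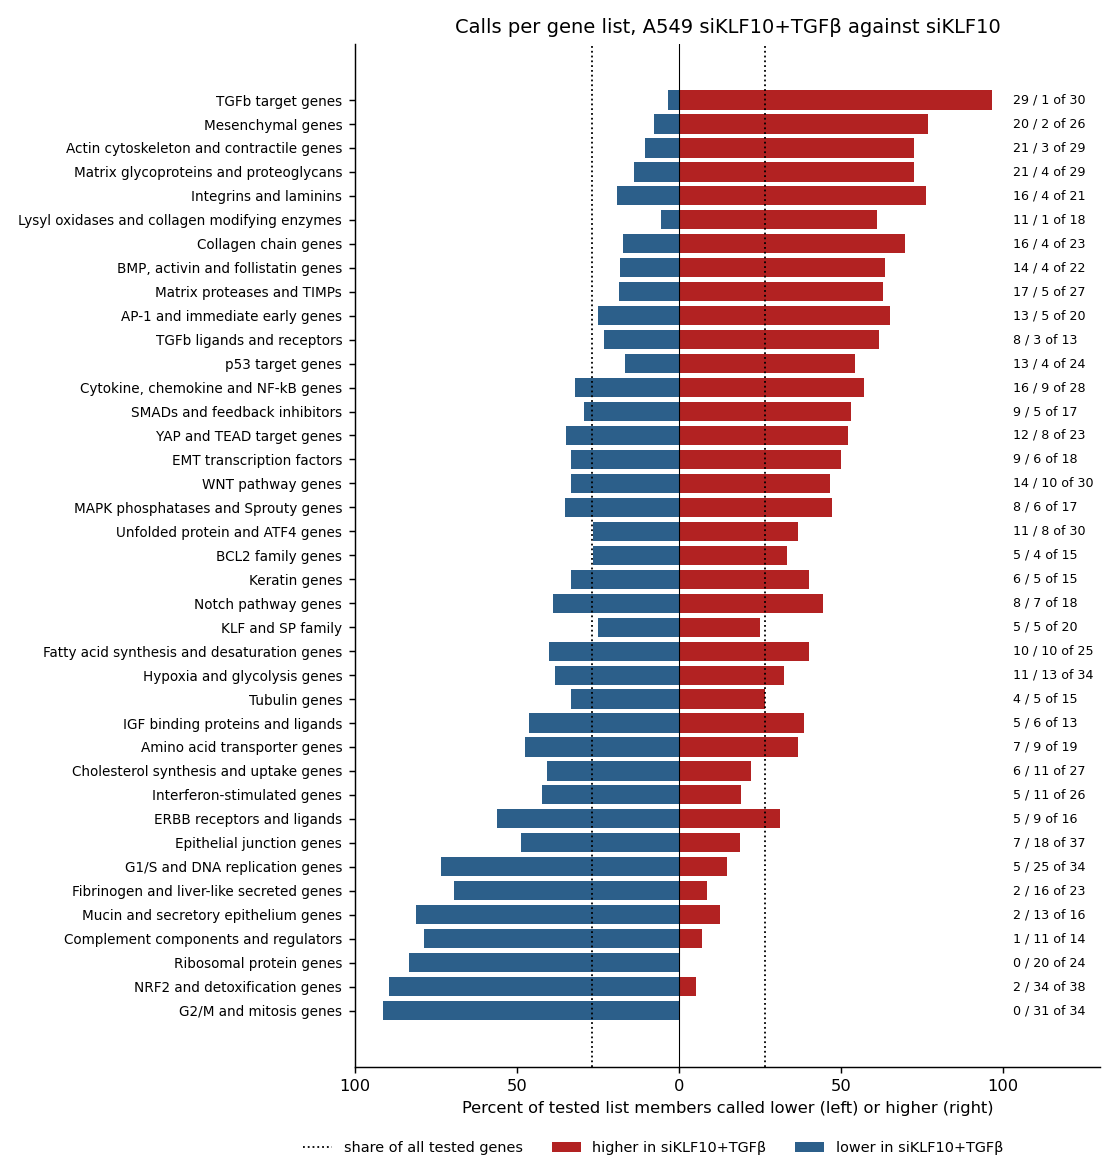
Bars give the percent of tested members called higher (red, right) and called lower (blue, left) in the libraries labelled siKLF10+TGFβ, for gene lists with at least 12 tested members, with the counts higher / lower of tested beside them. Dotted lines mark the shares over all tested genes (26.5% higher, 26.8% lower). TGFβ target genes stand at the top with 29 of 30 higher and G2/M genes at the bottom with 31 of 34 lower.

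Most cell-cycle genes fell. Of 34 G2/M and mitosis genes, 31 fell and none rose (median log2 fold change -0.64). Of these, 4 fell at least 2-fold. CDC25B, the phosphatase that starts mitosis, measured 92.4 and 86.7 CPM with the siKLF10+TGFβ label, against 382 and 383 CPM with the siKLF10 label (log2 fold change -2.10 ± 0.08, adjusted p = 9.9e-16). PTTG1, securin, measured 46.4 and 38.8 CPM in the libraries labelled siKLF10+TGFβ and 105 and 102 CPM in those labelled siKLF10 (log2 fold change -1.29 ± 0.10, adjusted p = 1.7e-10). The libraries within each pair were close for both. NUSAP1 and KIF20A, spindle proteins, fell (log2 fold changes -1.22 and -1.17). Of 34 G1/S and DNA replication genes, 25 fell and 5 rose (median -0.45), 3 rising without siKLF10 library B. PCNA, the replication clamp, measured 314 and 255 CPM in the libraries labelled siKLF10+TGFβ and 559.9 and 540.2 CPM in those labelled siKLF10 (log2 fold change -0.95 ± 0.09, adjusted p = 4.0e-09). CCND3, cyclin D3, fell (log2 fold change -1.32 ± 0.09, adjusted p = 1.7e-11). CDK6, a kinase partner of D cyclins, rose (log2 fold change 1.21 ± 0.08, adjusted p = 3.2e-11).

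CDK inhibitors, the brakes of the cycle, gave 1 rise and 3 falls among 6. CDKN1A, p21, a TGFβ and p53 target, measured 398 and 368 CPM with the siKLF10+TGFβ label, against 214 and 191 CPM with the siKLF10 label (log2 fold change 0.91 ± 0.08, adjusted p = 2.2e-09). CDKN1B, p27, was lower at 62.7 and 68.6 CPM in the libraries labelled siKLF10+TGFβ and 89.8 and 88.4 CPM in those labelled siKLF10 (log2 fold change -0.44 ± 0.08, adjusted p = 1.7e-04). The direction therefore differed between p21 and p27. Of 24 p53 targets 13 rose and 4 fell, 2 without siKLF10 library B. TP53I3, an oxidoreductase, led them at 238 and 231 CPM with the siKLF10+TGFβ label, against 49.2 and 48.7 CPM with the siKLF10 label (log2 fold change 2.26 ± 0.09, adjusted p = 2.4e-15). Of 15 BCL2 family genes 5 rose and 4 fell, 2 without siKLF10 library B. The BH3-only pro-apoptotic genes BMF and BCL2L11 rose by log2 fold changes of 3.54 ± 0.12 and 1.41 ± 0.09, and the survival genes BCL2A1 and MCL1 by 3.29 ± 0.21 and 1.51 ± 0.07. Transcripts with opposed roles in apoptosis thus rose together.

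Most detoxification genes fell. NRF2 is a transcription factor that binds antioxidant response elements (AREs) and drives genes for glutathione, NADPH and drug metabolism, and A549 is known for high NRF2 activity. Of 38 tested genes of this list, 34 fell and 2 rose (median log2 fold change -1.58), and 26 fell at least 2-fold. AKR1B10, an aldo-keto reductase, measured 169 and 131 CPM with the siKLF10+TGFβ label, against 2326 and 2076 CPM with the siKLF10 label (log2 fold change -3.88 ± 0.13, adjusted p = 1.9e-11). ALDH3A1, an aldehyde dehydrogenase, measured 33.5 and 34.1 CPM in the libraries labelled siKLF10+TGFβ and 342 and 322 CPM in those labelled siKLF10 (log2 fold change -3.30 ± 0.08, adjusted p = 2.4e-18). CYP4F11, a cytochrome P450, measured 12.4 and 10.5 CPM with the siKLF10+TGFβ label, against 127 and 137 CPM with the siKLF10 label (log2 fold change -3.54 ± 0.11, adjusted p = 6.5e-17). For these 3 enzymes the treated pair lay roughly an order of magnitude under the untreated pair. OSGIN1, an oxidative-stress growth inhibitor, fell (log2 fold change -3.30 ± 0.17, adjusted p = 6.2e-10). NQO1, a quinone reductase named after its values were seen, fell (log2 fold change -1.70 ± 0.08, adjusted p = 1.8e-13). HMOX1 and ALDH1A1, also named so, were the rises of the list (log2 fold changes 0.63 ± 0.09 and 0.46 ± 0.08). Aldo-keto reductases are close copies of each other, so the split of reads among them is uncertain.

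GPX2, a glutathione peroxidase, measured 48.9 and 25.2 CPM in the libraries labelled siKLF10+TGFβ and 514 and 456 CPM in those labelled siKLF10 (log2 fold change -3.76 ± 0.32, adjusted p = 5.3e-04). Its treated libraries stood well apart from each other and further still from the untreated pair. Its promoter is shown as an example of the ARE core TGACNNNGC, a motif chosen after values were seen and present on either strand in 13.3% of all promoters. The sequence is RefSeq's, GRCh38.p14, chr14:64942696-64942995 on the minus strand, with the match in capitals beginning 122 bases before the start.
GPX2: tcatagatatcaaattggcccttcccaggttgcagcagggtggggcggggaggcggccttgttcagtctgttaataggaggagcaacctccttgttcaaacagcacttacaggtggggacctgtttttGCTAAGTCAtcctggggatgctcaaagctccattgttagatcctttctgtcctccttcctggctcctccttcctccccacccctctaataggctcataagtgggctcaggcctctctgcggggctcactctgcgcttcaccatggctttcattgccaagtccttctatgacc

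Many genes usually described in liver and secretory epithelium, which A549 cells transcribe, also fell. Of 23 fibrinogen and liver-type secreted genes 16 fell and 2 rose (median -1.33). The 2 that rose, named after their values were seen, were the most abundant of the list with TGFβ. ANGPTL4, an inhibitor of lipoprotein lipase, measured 1544 and 1496 CPM with the siKLF10+TGFβ label, against 84.6 and 108 CPM with the siKLF10 label (log2 fold change 3.99 ± 0.10, adjusted p = 2.2e-18). TFPI2, a protease inhibitor, measured 657 and 813 CPM in the libraries labelled siKLF10+TGFβ and 221 and 237 CPM in those labelled siKLF10 (log2 fold change 1.69 ± 0.09, adjusted p = 2.2e-12). The summed level of the list was therefore higher with TGFβ, at 2422 and 2521 CPM in the libraries labelled siKLF10+TGFβ, against 1393 and 1469 CPM in those labelled siKLF10. The 3 fibrinogen chains, which form 1 clotting protein, all fell. FGA measured 9.41 and 6.66 CPM with the siKLF10+TGFβ label, against 225 and 212 CPM with the siKLF10 label (log2 fold change -4.82 ± 0.12, adjusted p = 7.2e-18). FGB measured 9.31 and 7.42 CPM in the libraries labelled siKLF10+TGFβ and 152 and 157 CPM in those labelled siKLF10 (log2 fold change -4.24 ± 0.11, adjusted p = 3.1e-18). FGG measured 13.9 and 13.6 CPM with the siKLF10+TGFβ label, against 270.1 and 268 CPM with the siKLF10 label (log2 fold change -4.29 ± 0.10, adjusted p = 2.8e-19). The promoters of FGA and FGB are shown because each holds the letters GTTAAT, part of the site of the liver factor HNF1, within 60 bases before the start. This motif was chosen after values were seen, and 6.88% of all promoters hold it on either strand. Both are RefSeq's, GRCh38.p14, FGA at chr4:154590693-154590992 on the minus strand and FGB at chr4:154562730-154563029 on the plus strand, with the matches in capitals beginning 52 and 51 bases before the start.
FGA: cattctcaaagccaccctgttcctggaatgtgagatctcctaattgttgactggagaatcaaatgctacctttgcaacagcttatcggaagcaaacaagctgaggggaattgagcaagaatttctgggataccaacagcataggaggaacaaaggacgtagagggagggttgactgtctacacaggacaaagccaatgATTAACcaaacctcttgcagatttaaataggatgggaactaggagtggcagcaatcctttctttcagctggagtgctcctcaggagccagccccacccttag
FGB: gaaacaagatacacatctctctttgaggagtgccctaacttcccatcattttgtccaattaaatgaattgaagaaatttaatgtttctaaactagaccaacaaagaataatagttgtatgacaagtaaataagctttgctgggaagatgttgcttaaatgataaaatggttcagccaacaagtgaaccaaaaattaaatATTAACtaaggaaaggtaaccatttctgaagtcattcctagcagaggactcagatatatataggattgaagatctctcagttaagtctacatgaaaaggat

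Complement genes gave 11 falls and 1 rise among 14, 3 rises without siKLF10+TGFβ library A and 2 with DESeq2's size factors. C5, the source of the C5a signal, measured 6.68 and 7.09 CPM with the siKLF10+TGFβ label, against 97.4 and 112 CPM with the siKLF10 label (log2 fold change -3.91 ± 0.13, adjusted p = 2.0e-16). C3, the central component, measured 50.4 and 49.4 CPM in the libraries labelled siKLF10+TGFβ and 232 and 228 CPM in those labelled siKLF10 (log2 fold change -2.21 ± 0.08, adjusted p = 1.2e-15). CFD, complement factor D, fell (log2 fold change -2.99 ± 0.12, adjusted p = 3.2e-15). CD59, which blocks the membrane attack complex and was named after its values were seen, rose (log2 fold change 2.14 ± 0.08, adjusted p = 1.8e-15). Among mucin and secretory genes 13 of 16 fell and 2 rose (median -1.80). MUC5B, an airway gel-forming mucin, measured 3.04 and 2.71 CPM with the siKLF10+TGFβ label, against 324 and 392 CPM with the siKLF10 label (log2 fold change -6.98 ± 0.14, adjusted p = 4.7e-19). AGR2, a disulfide isomerase needed for mucin folding, measured 4.45 and 3.09 CPM in the libraries labelled siKLF10+TGFβ and 263 and 275 CPM in those labelled siKLF10 (log2 fold change -6.22 ± 0.13, adjusted p = 1.1e-19). SPDEF, a goblet-cell factor, and SLPI, a secreted protease inhibitor, fell (log2 fold changes -4.66 and -4.44). TFF1, a trefoil peptide of mucous surfaces, rose instead, at 4.86 and 5.90 CPM with the siKLF10+TGFβ label, against 0.0868 and 0.697 CPM with the siKLF10 label (log2 fold change 4.04 ± 0.44, adjusted p = 8.1e-08).

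**Figure D3:**
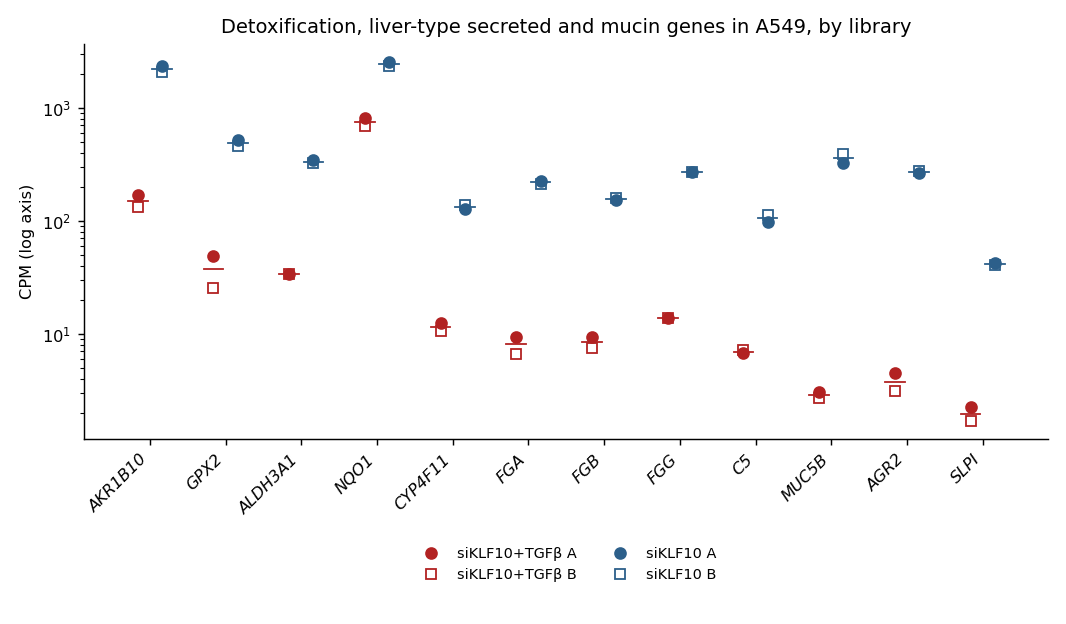
CPM on a log axis for 12 detoxification, liver-type and secretory genes in each of the 4 libraries (red, siKLF10+TGFβ A and B; blue, siKLF10 A and B; short lines, group means). The 12 were picked from genes that fell, and members of these lists that rose, such as ANGPTL4, TFPI2 and TFF1, are not shown. For each of the 12 the groups do not overlap, which holds for 73.2% of all tested genes. The libraries of the treated pair lie furthest apart for GPX2, at 48.9 and 25.2 CPM.

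Inflammatory genes were divided. Of 28 cytokine, chemokine and NF-κB genes, 16 rose and 9 fell. IL1A, an alarmin cytokine, measured 18.5 and 17.00 CPM with the siKLF10+TGFβ label, against 0.260 and 0.139 CPM with the siKLF10 label (log2 fold change 6.29 ± 0.30, adjusted p = 1.1e-13). CCL20, a chemokine for CCR6-bearing cells, moved down at 1.62 and 2.49 CPM in the libraries labelled siKLF10+TGFβ and 17.4 and 19.1 CPM in those labelled siKLF10 (log2 fold change -3.06 ± 0.20, adjusted p = 2.5e-11). IL6 had 21 and 49 reads in the libraries labelled siKLF10+TGFβ, against none in either labelled siKLF10. With a floor of 3 counts over that pair it was at least 14.5-fold higher. Interferon-stimulated genes gave 5 rises and 11 falls of 26 (median -0.58). IFITM2, an antiviral membrane protein, measured 2.02 and 1.35 CPM in the libraries labelled siKLF10+TGFβ and 10.4 and 11.4 CPM in those labelled siKLF10 (log2 fold change -2.75 ± 0.24, adjusted p = 2.6e-09). OASL, another interferon-induced gene, rose (log2 fold change 3.40 ± 0.23, adjusted p = 2.9e-11), so members of the list differed in direction. Of 8 HLA class I presentation genes 3 rose and 1 fell.

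Other signalling families held genes that moved in both directions. WNT pathway genes gave 14 rises and 10 falls of 30. WNT5B, a noncanonical ligand, measured 62.6 and 67.7 CPM with the siKLF10+TGFβ label, against 1.13 and 0.697 CPM with the siKLF10 label (log2 fold change 6.07 ± 0.19, adjusted p = 5.4e-17). TCF7, a WNT-responsive factor, measured 63.7 and 66.7 CPM in the libraries labelled siKLF10+TGFβ and 8.24 and 7.95 CPM in those labelled siKLF10 (log2 fold change 3.01 ± 0.12, adjusted p = 5.7e-15). NKD1, a feedback inhibitor, rose as well (log2 fold change 3.10 ± 0.14, adjusted p = 1.1e-13). Notch genes gave 8 rises and 7 falls of 18, 4 falls without siKLF10 library B and 3 by DESeq2. The ligand JAG1 measured 757 and 765 CPM with the siKLF10+TGFβ label, against 165 and 154 CPM with the siKLF10 label (log2 fold change 2.25 ± 0.08, adjusted p = 3.1e-16). The receptor NOTCH3 measured 67.2 and 65.8 CPM in the libraries labelled siKLF10+TGFβ and 346 and 336 CPM in those labelled siKLF10 (log2 fold change -2.36 ± 0.08, adjusted p = 2.7e-16). This ligand and this receptor moved in opposite directions. ERBB genes gave 5 rises and 9 falls of 16. The receptor ERBB3 fell (log2 fold change -2.91 ± 0.14, adjusted p = 1.5e-13), and the ligands HBEGF and NRG1 rose by log2 fold changes of 2.63 ± 0.14 and 2.22 ± 0.09. Of 17 MAPK phosphatase and Sprouty genes 8 rose and 6 fell, with SPRY1, a receptor kinase antagonist, at a log2 fold change of -3.16 ± 0.35 and DUSP10, a stress-kinase phosphatase, at 2.26 ± 0.19. Insulin-like growth factor genes gave 5 rises and 6 falls of 13, 3 falls without siKLF10 library A, and the binding proteins IGFBP7 and IGFBP1 had log2 fold changes of 3.51 ± 0.11 and -2.09 ± 0.14.

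Metabolic lists differed in balance. Fatty acid synthesis genes gave 10 rises and 10 falls of 25, 6 falls without siKLF10 library A. GPAM, the first acyltransferase of glycerolipid synthesis, measured 205 and 219 CPM with the siKLF10+TGFβ label, against 31.9 and 33.2 CPM with the siKLF10 label (log2 fold change 2.71 ± 0.09, adjusted p = 2.1e-16). SCD, stearoyl-CoA desaturase, rose as well (log2 fold change 1.43 ± 0.08, adjusted p = 2.2e-12). Cholesterol genes gave 6 rises and 11 falls of 27, and 3 or 2 rises without siKLF10 library A or B. HMGCS1, of the early mevalonate pathway, measured 75.3 and 69.8 CPM in the libraries labelled siKLF10+TGFβ and 214 and 192 CPM in those labelled siKLF10 (log2 fold change -1.49 ± 0.08, adjusted p = 1.8e-12). Hypoxia and glycolysis genes gave 11 rises and 13 falls of 34, with GPI, a glycolytic isomerase, at a log2 fold change of -1.18 ± 0.07 and the carbonic anhydrase CA12 at -1.80 ± 0.08. Unfolded protein and ATF4 genes gave 11 rises and 8 falls of 30, with VLDLR, a lipoprotein receptor, at a log2 fold change of 1.81 ± 0.10 and CTH, of cysteine synthesis, at -1.90 ± 0.18. Amino acid transporters gave 7 rises and 9 falls of 19, 4 rises by DESeq2, with SLC7A1, a cationic transporter, at a log2 fold change of 1.44 ± 0.08. Ribosomal protein genes gave 20 falls and no rise of 24 (median -0.33), all under 2-fold, and 12 falls without siKLF10 library A. RPL19 measured 594 and 501 CPM with the siKLF10+TGFβ label, against 839.6 and 776 CPM with the siKLF10 label (log2 fold change -0.56 ± 0.08, adjusted p = 7.3e-06). These are short transcripts, and genes with transcripts under 1000 bases had a median log2 effect of -0.09. The part of length in this result was not tested.

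Some genes had 0 to 3 reads over the pair on 1 side of the comparison. ATP8A2, a phospholipid flippase, had 209 and 418 reads in the libraries labelled siKLF10+TGFβ, against none in either labelled siKLF10, and was at least 130-fold higher with a floor of 3 counts over the pair. TMEM132E, a membrane protein, had 172 and 382 reads with the siKLF10+TGFβ label, against none with the siKLF10 label, at least 115-fold higher on the same floor. IGFL1, a secreted IGF-like peptide, had 2211 and 3193 reads with TGFβ, against 1 and 2 without, a ratio of their pooled CPM of 1121 (95% counting interval 383 to 5438). WNT7A, a WNT ligand, had 199 and 333 reads with TGFβ, against 0 and 1 without, a ratio of 331 (59.2 to 13102). In the opposite direction KRT4, a keratin of stratified mucosa, had 1 and 2 reads with TGFβ, against 385 and 212 without, a ratio of 0.00313 (0.000643 to 0.00918). HGF, hepatocyte growth factor, had 0 and 1 reads with TGFβ, against 35 and 35 without. Of these 6 genes, ATP8A2 and TMEM132E had no read on the low side, and the other 4 had 1 to 3 over the pair.

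Among genes with more reads on both sides, NPTX1, neuronal pentraxin, had 748 and 682 CPM with the siKLF10+TGFβ label, against 2.43 and 4.18 CPM with the siKLF10 label (log2 fold change 7.83 ± 0.14, adjusted p = 1.8e-20). LCE3D, a late cornified envelope gene with close copies, had 523 and 414 CPM in the libraries labelled siKLF10+TGFβ and 0.694 and 0.558 CPM in those labelled siKLF10 (log2 fold change 9.48 ± 0.18, adjusted p = 1.1e-19). CORO2B, an actin-binding coronin, measured 146 and 148 CPM with the siKLF10+TGFβ label, against 0.347 and 0.418 CPM with the siKLF10 label (log2 fold change 8.58 ± 0.18, adjusted p = 1.1e-19). In each the treated pair lay far above the untreated pair. CORO2B had 7 reads over the pair labelled siKLF10, so its ± value is narrower than its counting error. On the falling side GPR64, an adhesion receptor, measured 1.62 and 0.866 CPM in the libraries labelled siKLF10+TGFβ and 87.0 and 90.1 CPM in those labelled siKLF10 (log2 fold change -6.27 ± 0.16, adjusted p = 2.7e-18). AQP3, a water and glycerol channel, measured 6.37 and 4.60 CPM with the siKLF10+TGFβ label, against 168 and 189.5 CPM with the siKLF10 label (log2 fold change -5.08 ± 0.13, adjusted p = 1.3e-17). TSPAN8, a tetraspanin, and TM4SF4, a related membrane protein, fell (log2 fold changes -5.39 and -4.74).

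The tissue label was compared with defining markers. Pancreatic markers were near 0, with summed levels of 0.202 and 0.271 CPM in the libraries labelled siKLF10+TGFβ, against 0.347 and 0.139 CPM in those labelled siKLF10, and 4 of 8 had no read in any of the 4. Genes typical of the A549 line were abundant in all 4 libraries, with 10 of 11 lower with TGFβ (summed levels 16283 and 16963 CPM with TGFβ, against 25373 and 23736 CPM without). These overlap the detoxification list. Of the surfactant genes of alveolar type II cells, SFTPA1, SFTPA2, SFTPB and SFTPC had 3 reads or fewer in each library. AGER, HOPX and AQP5 of type I cells had none, so those named markers were at or near 0. SFTPD, another surfactant gene, was tested and fell (log2 fold change -2.44, adjusted p = 4.1e-05). ABCA3 and LPCAT1 of the type II list rose (log2 fold changes 0.93 and 0.49). The 12 listed type II markers summed to 396 and 358 CPM with the siKLF10+TGFβ label, against 254 and 264 CPM with the siKLF10 label. Of 5 type II markers tested 2 rose and 1 fell, the type I marker CAV1 fell (log2 fold change -1.44 ± 0.09, adjusted p = 5.9e-12), and of 3 airway markers 2 rose and 1 fell, with 1 rise without siKLF10 library A and 2 falls without siKLF10+TGFβ library A. Of 7 endothelial markers only TEK could be tested and rose (log2 fold change 4.46 ± 0.47, adjusted p = 8.1e-08), and PECAM1 had 0 and 4 reads with TGFβ against 1 and 1 without. Of 3 haematopoietic markers tested 1 rose and 1 fell, a fall lost without siKLF10 library A, and PTPRC had 2 reads in the pair labelled siKLF10+TGFβ against 2 in the pair labelled siKLF10.

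The TGFβ response of the libraries labelled siKLF10 was then set against that of the siCont libraries, which share no library with it. With siCont, 6733 genes were called, 47.7% of those tested, 3416 higher and 3317 lower. Across the 14124 genes the log2 fold changes of the 2 responses had a Pearson r of 0.893, given as a description because genes are not independent replicates. Genes called in the same direction in both numbered 2757 higher and 2558 lower, and 47 were called in opposite directions. A further 2161 were called only with the siKLF10 label and 1371 only with siCont, which by itself shows no difference. The difference itself, the response with the siKLF10 label minus that with siCont, was called for 916 genes (6.49%), 460 positive and 456 negative, and 2804 genes had an unadjusted p under 0.05. This count depended on single libraries. It lay between 379 and 545 without either siCont library, either siCont+TGFβ library or either siKLF10 library, was 1157 without siKLF10+TGFβ library B, and was 2684 without siKLF10+TGFβ library A. DESeq2 called 554. Since KLF10 RNA in the siKLF10 libraries overlapped that in the siCont ones at baseline, the direction below is that of the labels only.

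SCG2, secretogranin II of secretory granules, had the largest positive difference among the genes chosen by rule. It measured 182 and 257 CPM with the siKLF10+TGFβ label against 2.08 and 2.09 CPM with the siKLF10 label, and 4.73 and 4.01 CPM with siCont+TGFβ against 1.02 and 1.40 CPM with siCont. The pair labelled siKLF10+TGFβ stood far above the other 6 libraries, and the response differed by 4.83 ± 0.60, adjusted p = 5.9e-04 (log2). IGFBP5, an IGF binding protein of fibrotic matrix, measured 70.3 and 83.5 CPM with the siKLF10+TGFβ label against 3.38 and 4.18 CPM with the siKLF10 label, and 9.95 and 6.68 CPM with siCont+TGFβ against 5.29 and 5.51 CPM with siCont, a difference of 3.72 ± 0.28, adjusted p = 7.8e-08. CFI, a protease that inactivates complement, fell with siCont and was not called with the siKLF10 label. CFI measured 6.07 and 8.28 CPM with the siKLF10+TGFβ label against 5.29 and 5.16 CPM with the siKLF10 label, and 2.41 and 1.63 CPM with siCont+TGFβ against 12.98 and 16.2 CPM with siCont (difference 3.28 ± 0.33, adjusted p = 2.0e-06). KCNE4, a potassium channel subunit, had a difference of 2.82 ± 0.79, adjusted p = 0.034, but it rested on 8 reads in the siCont pair and 12 in the siKLF10 pair. Its call was lost without siCont library A, siCont library B, siCont+TGFβ library A, siCont+TGFβ library B or siKLF10 library A, with adjusted p of 0.28, 0.11, 0.092, 0.092 and 0.17.

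Negative differences came from the treated level, the untreated level or both. TNFAIP6, a hyaluronan-binding protein of inflamed matrix, measured 80.7 and 89.3 CPM with the siKLF10+TGFβ label against 1.56 and 1.95 CPM with the siKLF10 label, and 73.9 and 77.2 CPM with siCont+TGFβ against 0.145 and 0.350 CPM with siCont (difference -2.62 ± 0.48, adjusted p = 0.0018), with 6 reads in the siCont pair. MMP10, stromelysin-2, measured 29.3 and 31.8 CPM with the siKLF10+TGFβ label against 0.955 and 0.837 CPM with the siKLF10 label, and 52.9 and 47.2 CPM with siCont+TGFβ against 0.145 and 0.262 CPM with siCont (difference -2.84 ± 0.58, adjusted p = 0.004), and lost its call without siKLF10 library A, with an adjusted p of 0.078. H19, an imprinted noncoding RNA, measured 3.84 and 4.55 CPM with the siKLF10+TGFβ label against 11.5 and 10.3 CPM with the siKLF10 label, and 5.03 and 10.5 CPM with siCont+TGFβ against 4.50 and 4.90 CPM with siCont (difference -2.02 ± 0.36, adjusted p = 0.0028). GGT5, a gamma-glutamyltransferase, and FA2H, a fatty acid hydroxylase, had differences of -2.36 ± 0.55, adjusted p = 0.011 and -1.68 ± 0.40, adjusted p = 0.013. GGT5 lost its call without siCont+TGFβ library B or siKLF10+TGFβ library B (adjusted p 0.090 and 0.12), and FA2H without siCont+TGFβ library A or siKLF10+TGFβ library B (0.26 and 0.066).

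**Figure D4:**
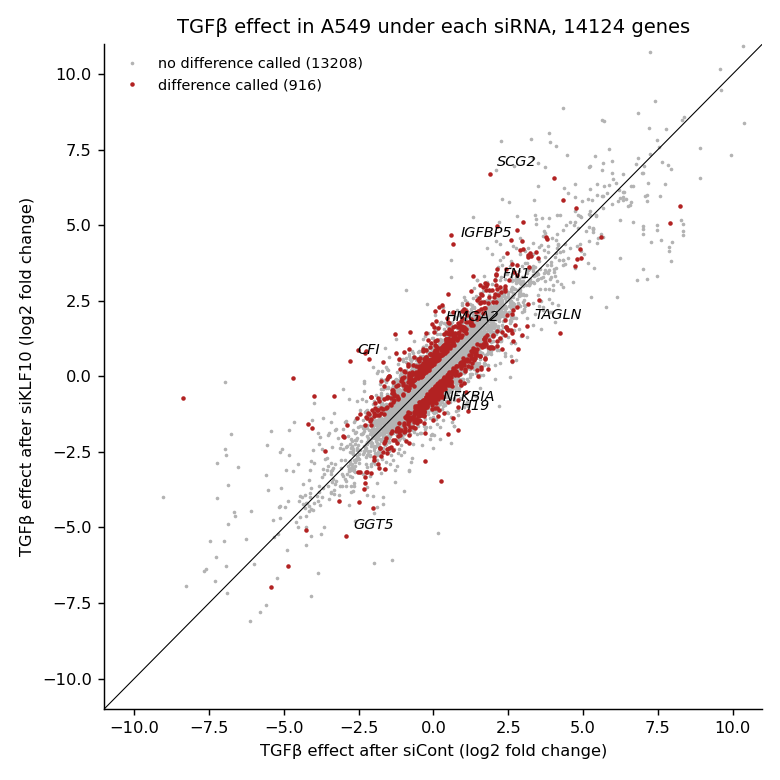
Each point is 1 of 14124 genes, with the TGFβ log2 fold change after siCont on the horizontal axis and that of the libraries labelled siKLF10 on the vertical axis. The line marks equal effects. Red points are the 916 genes whose difference was called, and SCG2 lies far above the line, at 1.88 after siCont and 6.71 with the siKLF10 label.

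Of the EMT genes of the panel given here, FN1 had a response that was called different. FN1 measured 7163 and 6261 CPM with the siKLF10+TGFβ label against 801 and 867 CPM with the siKLF10 label, and 5756 and 5222 CPM with siCont+TGFβ against 1256 and 1326 CPM with siCont, so that the rise with the siKLF10 label exceeded that with siCont by 0.92 ± 0.12, adjusted p = 5.8e-05. The differences were -0.56 ± 0.23, adjusted p = 0.18 for SNAI1 and 1.16 ± 0.48, adjusted p = 0.18 for SNAI2, neither called. CDH1 gave 0.20 ± 0.12, adjusted p = 0.41, not called. HMGA2 was called with the siKLF10 label and not with siCont, and the difference itself was called. It measured 205 and 239 CPM with the siKLF10+TGFβ label against 73.2 and 74.5 CPM with the siKLF10 label, and 85.4 and 79.7 CPM with siCont+TGFβ against 73.8 and 74.97 CPM with siCont (difference 1.44 ± 0.13, adjusted p = 4.6e-07). ELF3 fell further with the siKLF10 label, at 39.1 and 34.4 CPM with the siKLF10+TGFβ label against 295 and 303 CPM with the siKLF10 label, and 80.0 and 73.2 CPM with siCont+TGFβ against 278 and 269 CPM with siCont (difference -1.20 ± 0.12, adjusted p = 2.0e-06). The differences of ZEB1, CDH2 and VIM were not called, at 0.39, 0.28 and -0.35 (adjusted p = 0.21, 0.18 and 0.079). Without siKLF10+TGFβ library A, which leaves 1 library in that group, they were 0.55, 0.32 and -0.48.

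Many cell-cycle genes responded differently under the 2 siRNA labels. The TGFβ response was called more negative with the siKLF10 label for 21 of 34 G2/M genes, against 3.23% of all tested genes, and for 12 of 34 G1/S genes. The median G2/M log2 fold change was -0.64 with the siKLF10 label and -0.17 with siCont. PTTG1 measured 46.4 and 38.8 CPM with the siKLF10+TGFβ label against 105 and 102 CPM with the siKLF10 label, and 71.5 and 77.2 CPM with siCont+TGFβ against 93.5 and 100.1 CPM with siCont (difference -0.91 ± 0.13, adjusted p = 2.3e-04). CDC25B measured 92.4 and 86.7 CPM with the siKLF10+TGFβ label against 382 and 383 CPM with the siKLF10 label, and 103 and 101 CPM with siCont+TGFβ against 264 and 254 CPM with siCont (difference -0.75 ± 0.11, adjusted p = 1.8e-04). CCNB2, cyclin B2, named after its values were seen, fell with the siKLF10 label (log2 fold change -0.94 ± 0.09) and had a log2 fold change of -0.06 ± 0.09 with siCont (difference -0.88 ± 0.13, adjusted p = 1.8e-04). The G2/M count was 12 without siCont+TGFβ library A and 13 without siKLF10 library A. The G1/S count was 1 to 3 without siCont library A or B, siCont+TGFβ library A or B, or siKLF10 library A, so that part rests on which libraries are kept. NRF2 genes differed for 9 of 38, 7 of them more negative with the siKLF10 label, and their medians were -1.58 with that label and -1.44 with siCont.

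The same TGFβ comparison in Panc1 libraries labelled siKLF10 (3 with TGFβ and 3 without) was fitted together with A549 in a model of all 20 libraries. Of 15058 genes, 5571 (37%) had a response that differed between the lines, 2884 more positive and 2687 more negative in A549. Effects in this paragraph and the next come from that model. IL11 rose in both lines, with log2 fold changes of 5.45 in A549 and 3.39 in Panc1 (difference 2.06 ± 0.20, adjusted p = 6.1e-09). COL1A1 did likewise, with 5.54 in A549 and 3.77 in Panc1 (difference 1.77 ± 0.13, adjusted p = 8.2e-13). CDH1 fell in both (log2 fold changes -2.77 in A549 and -2.47 in Panc1), and their difference of -0.31 ± 0.25, adjusted p = 0.36 was not called. SNAI1 rose less in A549 than in Panc1 and SNAI2 more (differences -1.82 ± 0.23, adjusted p = 1.5e-07 and 1.94 ± 0.31, adjusted p = 6.3e-06). IGFBP3, named after its values were seen, was opposite, -0.76 in A549 and 2.98 in Panc1 (-3.75 ± 0.12, adjusted p = 1.7e-22). SCG2 rose in A549 (6.70) and fell in Panc1 (-1.80), a difference of 8.50 ± 0.25, adjusted p = 2.3e-21. CORO2B and KIF26B, a kinesin-like regulator, rose in A549 by 8.56 and 8.21 and had 0.28 and 0.14 in Panc1 (differences 8.28 ± 0.27, adjusted p = 7.0e-22 and 8.07 ± 0.34, adjusted p = 4.1e-19). Neither was called in Panc1, where CORO2B averaged 6.99 ± 0.360 CPM with TGFβ and 5.79 ± 0.846 CPM without (SD, n = 3 each). GPR64 and AQP3 gave -6.28 and -5.09 in A549 and -0.59 and -0.15 in Panc1 (differences -5.69 ± 0.32, adjusted p = 5.5e-16 and -4.93 ± 0.67, adjusted p = 6.5e-05). The rule also picked RGS4, GABBR2, KRT4, FGB and MSC, for which a group held 3 reads or fewer. FGB, for example, had 1 read over the Panc1 libraries labelled siKLF10+TGFβ and none over those labelled siKLF10, so no difference is given for them.

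Genes of the programs that fell in A549 often differed between the lines. G2/M genes had a median log2 fold change of 0.31 in Panc1, and for 32 of 34 the response was called more negative in A549. G1/S genes had a median of 0.22 in Panc1, and 28 of 34 differed, 26 of them more negative in A549. NRF2 genes had a median of -0.02 in Panc1, and 32 of 38 differed, 30 more negative in A549. Over all genes 37% differed in either direction. No minimum level in Panc1 was set for the NRF2 count and median. AKR1B10, of that list, was near 0 in Panc1, so that no fold is compared. It measured 0.249 ± 0.0768 CPM with TGFβ and 0.151 ± 0.151 CPM without (SD, n = 3 each). NQO1 gave -1.72 in A549 and -0.61 in Panc1 (-1.11 ± 0.11, adjusted p = 4.1e-10). PTTG1 gave -1.31 in A549 and 0.44 in Panc1 (-1.75 ± 0.12, adjusted p = 1.1e-13). The lines were separate sets of libraries, so line and any batch cannot be told apart. Reads counted as no feature made up 57.6% to 60.1% of the A549 libraries and 33.6% to 36.9% of the Panc1 libraries. The part of this in the line differences was not tested.

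**Figure D5:**
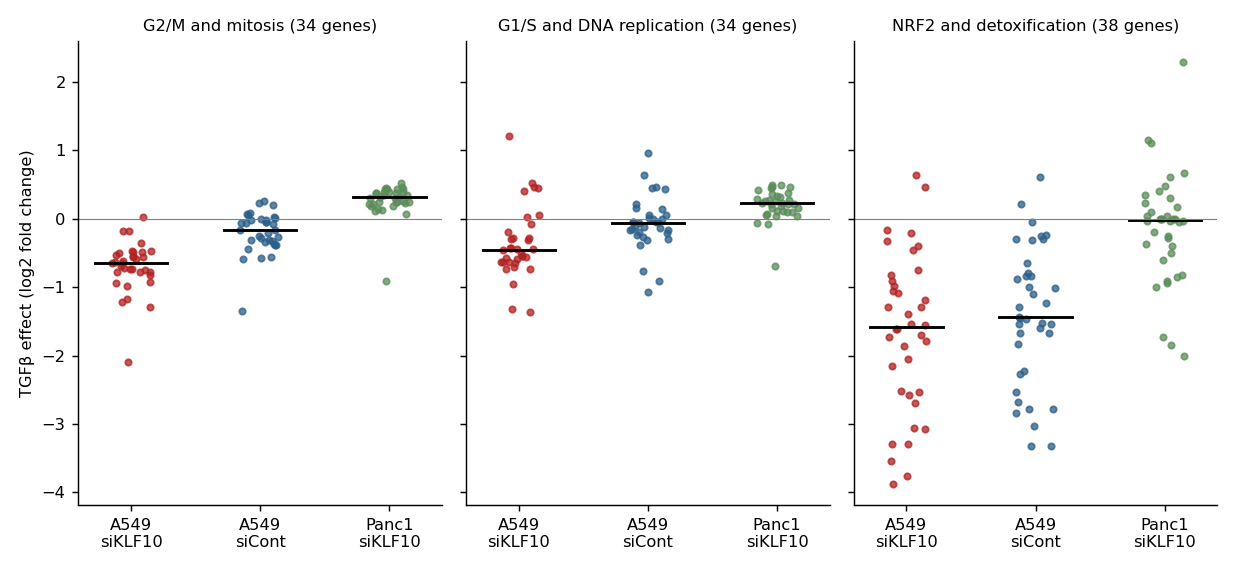
TGFβ log2 fold changes of the members of 3 gene lists in A549 labelled siKLF10 (red), A549 with siCont (blue) and Panc1 labelled siKLF10 (green). Points are genes and bars are list medians. G2/M and G1/S medians are negative in A549 (-0.64 and -0.45 with the siKLF10 label) and positive in Panc1 (0.31 and 0.22), and the NRF2 median is -1.58 in A549 labelled siKLF10, against -0.02 in Panc1.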

How the data were processed

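Poly(A) RNA from A549 and Panc1 cells was sequenced with a directional library kit, per the labels' protocols. The submitters' processing notes name TopHat, Bowtie2, HTSeq 0.6.0, DESeq2 and the build hg19, without roles. Strand setting and annotation are not given in the sources used here. Reads of overlapping and antisense genes can therefore not be separated. The authors deposited raw read counts per gene and library. Rows that name no gene were dropped. They held 57.6% to 60.1% (no feature) and 0.336% to 0.374% (ambiguous) of the reads of A549 libraries, counted over gene, no-feature and ambiguous rows. Gene counts per A549 library ran from 6846761 to 19070551, and a floor of 3 counts lay between 0.157 and 0.438 CPM.

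Counts of the 8 A549 libraries were fitted in edgeR 4.0.16 (R 4.3.3) as group means, with genes kept by a minimum count of 10 and a total of 15, TMM factors and robust quasi-likelihood tests (4 residual degrees of freedom). Adjusted p-values are Benjamini-Hochberg over all 14124 genes, two-sided. The difference between lines came from 1 fit of all 20 libraries (15058 genes, 12 residual degrees of freedom). The scripts were tested on simulated data. Alternatives were DESeq2 1.42.0, other scaling, filters and library sets, a replicate block and each library left out. The authors' 6 comparison tables were not used.

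The members and gene lists were chosen with earlier results of these data known. Named genes were a panel, the 12 largest rises and falls, up to 5 called genes of each list by size, genes near 0 in a group, and the 5 largest differences each way between siRNA labels and between lines. The largest rises, falls and differences were taken among genes averaging at least 5 CPM. Of these, a part is described. A panel gene and some others are not reported here. Promoters are RefSeq's on GRCh38.p14, and no coordinates were converted.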

Additional observations from a re-analysis of the deposited data

Results flagged for a closer look

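The differences below were picked out because the TGFβ response differed between siRNA labels or between lines by a test of the difference itself, and all adjusted p-values are edgeR's over all genes.

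Between the labels siKLF10 and siCont in A549, the response differed for 916 of 14124 genes (6.49%). Among genes past the mean level of 5 CPM set for naming, positive log2 differences included 4.83 for SCG2, 3.72 for IGFBP5, 3.28 for CFI and 2.82 for KCNE4. The largest negative ones were -2.84 for MMP10, -2.62 for TNFAIP6, -2.36 for GGT5, -2.02 for H19 and -1.68 for FA2H. FN1 differed by 0.92. Among gene lists, 21 of 34 G2/M genes and 9 of 38 NRF2 genes differed, against 6.49% of all genes. KLF10 RNA itself overlapped between the libraries labelled siKLF10 and the siCont libraries at baseline, and the part of the siRNA in these differences was not tested.

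Between A549 and Panc1 libraries labelled siKLF10, the response differed for 5571 of 15058 genes (37%). SCG2 differed by 8.50, CORO2B by 8.28 and KIF26B by 8.07 on the log2 scale, all more positive in A549. GPR64 differed by -5.69 and AQP3 by -4.93. Of G2/M genes 32 of 34 differed, and of NRF2 genes 32 of 38, against 37% of all genes. No group had more than 3 libraries, so single libraries far from their group were not looked for.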

How the results depend on the processing

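The count of called genes stayed within 1.5 times of 7523 in each alternative, at 6013 with DESeq2, 6587 with the 4 libraries alone, 6490 with a mean count of at least 50, and 5971 to 8287 with a library left out. Genes called and at least 2-fold numbered 1633 with a mean count of at least 50, where fewer genes were tested. With that filter 2 interferon-stimulated genes rose, and among mucin and secretory genes 1 rose and 8 fell. Without a filter 4 mesenchymal genes fell. With a library left out, 3 to 5 G1/S genes rose and 12 to 22 ribosomal protein genes fell. The difference between siRNA labels was called for 554 genes by DESeq2 and for 379 to 2684 with a library left out. Among these, 12 to 27 G2/M genes and 1 to 18 G1/S genes were more negative with the siKLF10 label. The causes of these shifts were not tested. Leaving out a library leaves an arm with 1 sample, assumed to vary like the other groups. No direction reversed in any alternative run. Of the other results, 25 counts moved by over 1.5 times, 15 calls were lost and 3 gained in at least 1 alternative. Some list counts given above as changed without a library also moved by DESeq2, with all 8 A549 libraries kept. By DESeq2, falls numbered 2 for p53 targets, 2 for BCL2 family genes and 2 for integrins and laminins. They numbered 3 each for SMADs and feedback inhibitors, EMT transcription factors, and the KLF and SP family. There were 6 falls of fatty acid genes and 2 rises of cholesterol genes.

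The letters A and B recur in each group, and their deviations over the tested genes correlated by -0.04 to 0.12 between groups. Whether a letter stands for a shared culture or batch was not tested. With the letter as a replicate block, 7695 genes were called, 1024 differed between siRNA labels and 5616 between lines. With 2 libraries a group, depths from 6846761 reads limit the precision of genes near 3 counts.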
